A study of Mus musculus with 7 samples.

Results

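The voltage-gated and potassium channel genes were the 140 genes, of 48795 in the count table, whose symbols begin with Kcn, Cacna1, Cacna2d, Cacnb, Cacng or Scn and a digit, together with Clcn1. Pseudogenes were left out. Of the 140, 135 were protein coding and 5 were RNA genes that lie antisense to a channel gene. The rule reads symbols only, though it was set with earlier results of these data known. RNA sequencing was run on tibialis anterior (TA), a fast-twitch muscle of the lower hind limb, from male mice 6 months old. There were 3 wild-type (WT) libraries and 4 libraries of miR-486-/- mice (mir-486 KO), in which CRISPR had removed the hairpin of this muscle microRNA from within the Ank1 gene. Strain was labelled C57BL/6 for the WT libraries and FVB N/J for the KO libraries, whereas the WT columns of the table carry the name FVB and the methods describe 1 background for both genotypes, so strain and genotype cannot be told apart here. The labels name no treatment. The methods describe the replicates as mice, while the labels do not tie a library to an animal, so each p-value reflects the spread among the libraries at hand.

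Ion channels set how a muscle fibre fires and contracts. Sodium channels carry the upstroke of the action potential along the sarcolemma, potassium and chloride channels return the membrane to rest and hold it there, and the calcium channel of the T-tubule senses the voltage and opens the ryanodine receptor of the sarcoplasmic reticulum. Most channels are built from pore-forming subunits, which carry the ions, and auxiliary subunits, which set trafficking and gating. Mutations in several of the fibre channels cause periodic paralysis or myotonia in humans. The comparison asked which of these transcripts differed in level between WT and mir-486 KO muscle, class by class.

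Reads assigned to genes numbered 23839577 to 28168275 per library. Levels are given as CPM, the counts of a gene per 1000000 reads assigned to genes, scaled with TMM factors, which correct for differences in library composition. WT 3 stood apart from the other 6 libraries. Its correlation with each of them over log2 CPM was 0.937 to 0.951, and its mitochondrial genes took 22.4% of the gene counts, against 13.0 to 17.9% elsewhere. The channel genes together took 0.233% of the gene counts in WT 3, 0.470% in WT 1, 0.447% in WT 2 and 0.398 to 0.468% in the KO libraries. Fold changes are therefore given with all libraries and without WT 3, and levels in CPM per kb are means of all 3 WT libraries unless stated. The Mir486 gene held 1 read in WT 1, 1 in WT 2 and 0 in every other library, so this table gives no check of the knockout. Its host Ank1 had 264 to 299 CPM in WT and 244 to 273 CPM in KO. The tissue label was checked against 7 fast fibre markers, which summed to 139941 to 155957 CPM in WT and 124502 to 147257 CPM in KO.

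Of the 140 channel genes, 61 had enough reads to be tested among 14002 genes. Of the other 79, 22 had no read in any of the 7 libraries, 26 had 1 to 10 reads in all, and 31 had more than 10. No untested member exceeded 23 reads in any library. The share tested differed by class: all 4 sodium channel beta subunits and Clcn1 were tested, as were 7 of 8 calcium- and sodium-activated potassium channels, 10 of 16 calcium channel auxiliary subunits and 6 of 10 calcium channel pores. Of the voltage-gated potassium pores 17 of 40 were tested, of the inward rectifiers 4 of 15, of the potassium channel auxiliary subunits 5 of 17, of the sodium channel pores 3 of 10 and of the K2P leak channels 3 of 14.

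Per length, the WT muscle was dominated by a small group of channel transcripts. Among the highest levels, in CPM per kb of exon, were those of Cacng1 at 209, Scn4b at 90.8, Cacna1s at 85.4 and Scn4a at 62.0. These are subunits of the T-tubule calcium channel and of the muscle sodium channel. Below them were Cacng6 at 51.1, the chloride channel Clcn1 at 45.6 and Kcng4 at 39.7. Kcna7 stood at 34.6 CPM per kb. Without WT 3 the WT means were 193 in Cacng1, 119 in Scn4b, 112 in Cacna1s, 79.3 in Scn4a, 44.3 in Kcng4 and 47.5 in Kcna7, so that Kcng4 and Kcna7 changed places. In KO these potassium channel genes stood at 25.2 and 38.2 CPM per kb. The inward rectifiers Kcnj11 and Kcnj12 stood at 28.8 and 15.4 CPM per kb, and Kcnj2 at 11.1. All K2P, auxiliary potassium channel and RNA members that were tested lay below 2 CPM per kb in WT.

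**Figure D1:**
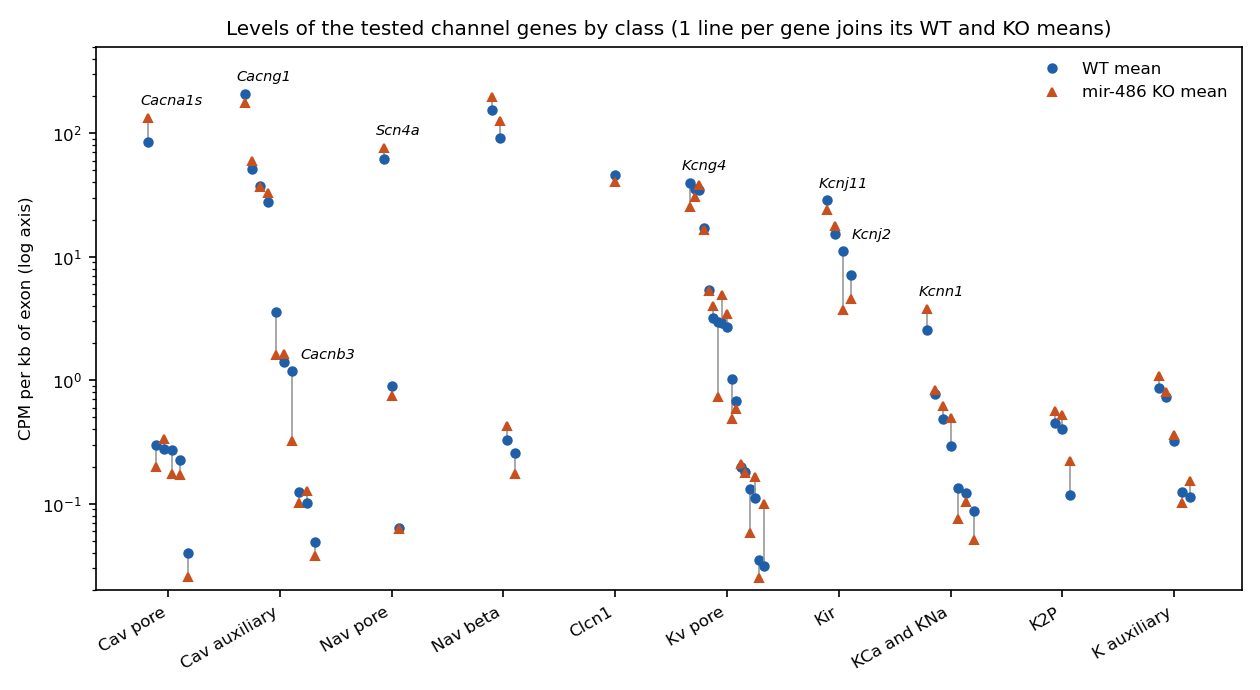
Mean level of each of the 61 tested channel genes except Kcnq1ot1, in CPM per kb of exon on a log axis, by channel class (Cav, calcium; Nav, sodium; Kv, voltage-gated potassium; Kir, inward rectifier; KCa and KNa, calcium- and sodium-activated potassium; K2P, leak potassium). Circles are means of 3 WT libraries, triangles means of 4 mir-486 KO libraries, and a line joins the values of 1 gene. Kcnj2 falls from 11.1 to 3.72 CPM per kb and Cacnb3 from 1.19 to 0.323, while Cacng1, Cacna1s and Scn4a stay near the top in both groups.

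Some channel genes that lie side by side were far apart in level, and 4 such pairs, picked after their values were seen, are given. Cacng1 and Cacng4 are 15835 bp apart, and stood at 209 and 0.0501 CPM per kb in WT. Scn4b and Scn2b are 8325 bp apart, at 90.8 and 0.327 CPM per kb, and Cacng6 at 51.1 CPM per kb lies 8547 bp from Cacng8, which had no read. Kcnj2 at 11.1 CPM per kb lies 38196 bp from Kcnj16, also without a read. Distances are from the GRCm38 annotation.

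With all 7 libraries, 2 channel genes fell in mir-486 KO muscle and none rose by edgeR's quasi-likelihood test (Benjamini-Hochberg adjusted p under 0.05). The genes that fell were Kcnj2 and Cacnb3, 3.28% of the 61 tested, against 1.85% of all genes tested. Against the 0 that rose, 0.964% of all genes tested rose, 6 channel genes were higher at an unadjusted p under 0.05, and DESeq2 called 1. At an unadjusted p under 0.05 there were 16 channel genes (26.2%), 6 higher and 10 lower, against 20.2% of all genes. In 15 channel genes (24.6%) the ranges of WT and KO were apart, against 22.4% of all genes. Kcnv2 and Kcnk5, counted among the 6 higher, had enough reads to be tested only or mainly through KO, where they are high. Kcnd1, counted among the 10 lower, had enough mainly through WT. These low genes are no support for the counts that hold them. These shares lie near those of all genes. The median log2 fold change (KO over WT) was -0.03 over the tested channel genes and -0.02 over all genes.

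Kcnj2 encodes Kir2.1, a strong inward rectifier that holds the resting potential of muscle fibres and also works in capillary endothelium. Mutations of its human counterpart cause Andersen-Tawil syndrome, which includes periodic paralysis. Kcnj2 (ENSMUSG00000041695.2) had 75.3, 72.6 and 33.2 CPM in WT 1 to 3, and 17.2, 26.0, 21.3 and 16.5 CPM in KO 1 to 4. All KO libraries lay below all WT libraries, and WT 3 lay nearer to the KO libraries than to WT 1 and WT 2. The means were 60.4 ± 23.6 CPM (SD, n = 3) in WT and 20.3 ± 4.39 CPM (SD, n = 4) in KO, a log2 fold change of -1.58 (adjusted p = 0.0300 by edgeR, SE 0.29). Without WT 3 it was -1.86 (edgeR adjusted p = 8.49e-05). Per length, Kcnj2 held rank 16 among the 140 channel genes in WT, with or without WT 3, and rank 21 in KO. In whole muscle, fewer cells of a type and less RNA per cell cannot be told apart.

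Cacnb3 encodes a beta subunit of voltage-gated calcium channels that is best known from neurons and smooth muscle, whereas fibres use Cacnb1. Cacnb3 (ENSMUSG00000003352.13) had 3.04, 3.15 and 8.07 CPM in WT 1 to 3, and 1.13, 1.35, 1.38 and 1.32 CPM in KO 1 to 4. Every KO library lay below every WT library, but here WT 3 was the highest of the 7. The means were 4.75 ± 2.87 CPM (SD, n = 3) and 1.29 ± 0.114 CPM (SD, n = 4), a log2 fold change of -1.87 (adjusted p = 0.0364 by edgeR, SE 0.36). Without WT 3 the change was -1.25 (edgeR adjusted p = 0.00185). Cacnb1, the fibre isoform, stood at 170 ± 17.6 CPM in WT against 166 ± 3.06 CPM in KO, a log2 fold change of -0.03 (95% interval -0.30 to 0.24; -0.10 without WT 3).

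The promoters of the genes that fell are shown because these are the transcripts past the test with all libraries. Each runs from 250 bases before to 50 bases after the annotated start (RefSeq, GRCm38.p6), written 5′ to 3′ along the gene, with searched motifs in capitals: CAGCTG, an E-box of the kind myogenic factors bind, and GGGCGG, the GC box, which reads CCGCCC where it lies on the other strand. Both strands were searched and no marked match overlapped another. Kcnj2, on the plus strand at chr11:111065914-111066213, holds an E-box at position -206 from the start and GC boxes at -102 and -51. Cacnb3 has a pair of annotated starts on the plus strand: the first window, chr15:98632078-98632377, holds a GC box at position 29, and the second, chr15:98634517-98634816, holds GC boxes at -193, -29, -9 and 8.
Kcnj2: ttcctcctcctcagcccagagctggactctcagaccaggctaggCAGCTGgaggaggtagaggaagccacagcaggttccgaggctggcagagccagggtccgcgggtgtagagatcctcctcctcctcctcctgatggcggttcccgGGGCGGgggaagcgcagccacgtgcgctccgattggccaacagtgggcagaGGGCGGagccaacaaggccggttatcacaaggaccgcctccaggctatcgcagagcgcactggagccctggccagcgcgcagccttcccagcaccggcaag
Cacnb3 first start: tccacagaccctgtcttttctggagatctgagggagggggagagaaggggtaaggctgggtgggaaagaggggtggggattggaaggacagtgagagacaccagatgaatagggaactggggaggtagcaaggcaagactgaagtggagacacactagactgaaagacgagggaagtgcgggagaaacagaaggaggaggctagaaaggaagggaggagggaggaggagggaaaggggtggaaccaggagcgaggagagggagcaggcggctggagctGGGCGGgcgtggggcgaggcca
Cacnb3 second start: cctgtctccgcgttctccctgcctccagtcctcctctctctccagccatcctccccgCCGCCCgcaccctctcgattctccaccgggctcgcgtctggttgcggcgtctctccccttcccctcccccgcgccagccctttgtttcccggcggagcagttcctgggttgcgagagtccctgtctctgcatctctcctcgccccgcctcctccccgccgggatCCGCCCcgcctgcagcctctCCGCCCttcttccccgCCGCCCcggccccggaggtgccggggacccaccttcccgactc

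These windows differ in base composition. Kcnj2 was 66.7% G and C with 18 CpG dinucleotides, the first Cacnb3 window 59.7% with 7, and the second 72.0% with 29. An E-box of these letters occurred in 18 of 61 promoters (29.5%) of 43 tested channel genes and in 16.3% of 32851 mouse promoters of the same length, and a GC box in 45.9 and 35.7%. The TATA box TATAAA occurred in 6.56 and 13.6%, the MEF2 site in 1.64 and 0.557%, and the cAMP response element TGACGTCA in 0 and 1.79%. A match describes the letters only and is no evidence of binding.

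**Figure D2:**
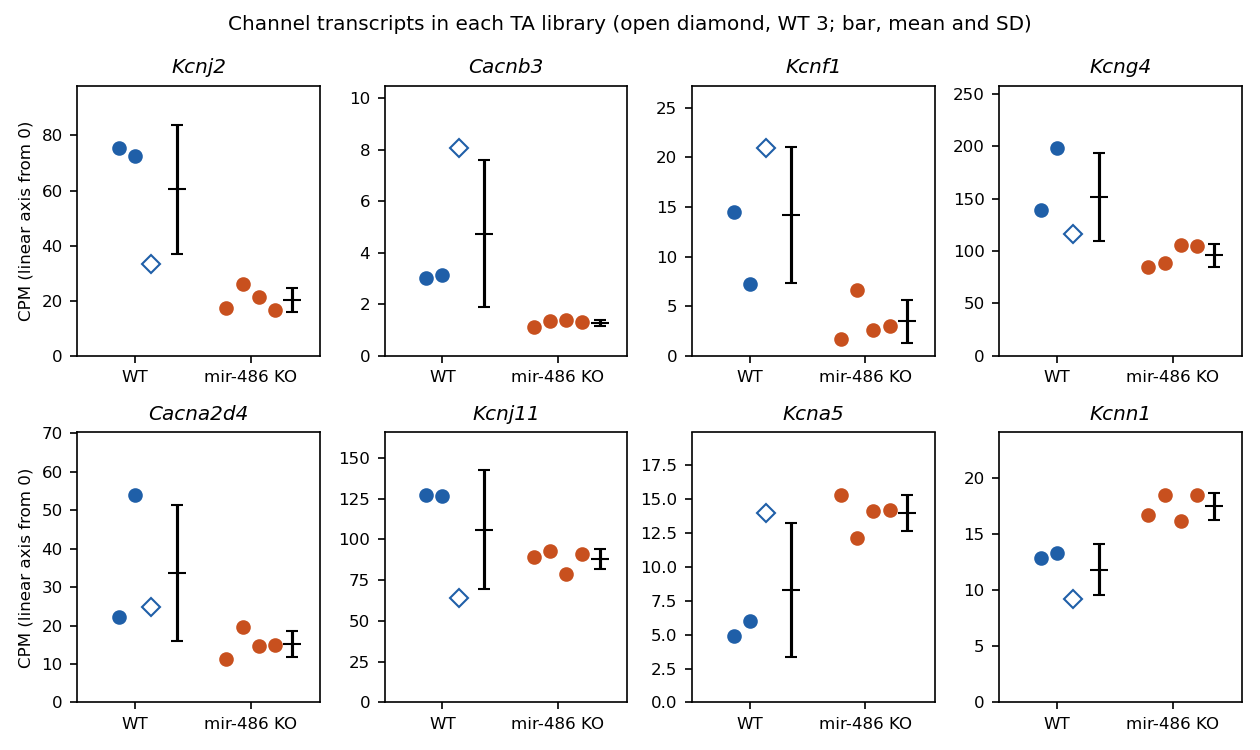
CPM of 8 channel genes in each library on linear axes from 0. Filled circles are libraries, the open diamond is WT 3, and the bars give the mean and SD of 3 WT and 4 mir-486 KO libraries; Kcnj2 in WT 3 (33.2 CPM) lies between WT 1 (75.3) and the highest KO library (26.0), and Kcna5 in WT 3 (14.0 CPM) lies within the KO range.

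Without WT 3, 14 of 66 tested channel genes passed edgeR's test: 12 fell (18.2%, against 6.55% of all genes) and 2 rose (3.03%, against 6.15%). Those that fell were Kcnj2, Kcnj8, Kcnj11, Kcnf1, Kcng4, Kcnh2, Kcna7, Kcnc4, Kcnt1, Cacna1c, Cacna2d4 and Cacnb3, and those that rose were Kcna5 and Kcnn1. DESeq2 on all 7 libraries found 7 lower (8.75% of 80, against 3.89% of all genes), namely Cacna1c, Cacna2d4, Cacnb3, Kcnf1, Kcnh2, Kcnj2 and Kcnj8, and 1 higher, Kcnn1 (1.25%, against 2.64%). The count of 2 with all libraries therefore rests on the inclusion of WT 3 and on the tool. With 2 WT libraries left, the fit without WT 3 takes the spread of WT from that pair and the 4 KO libraries.

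**Figure D3:**
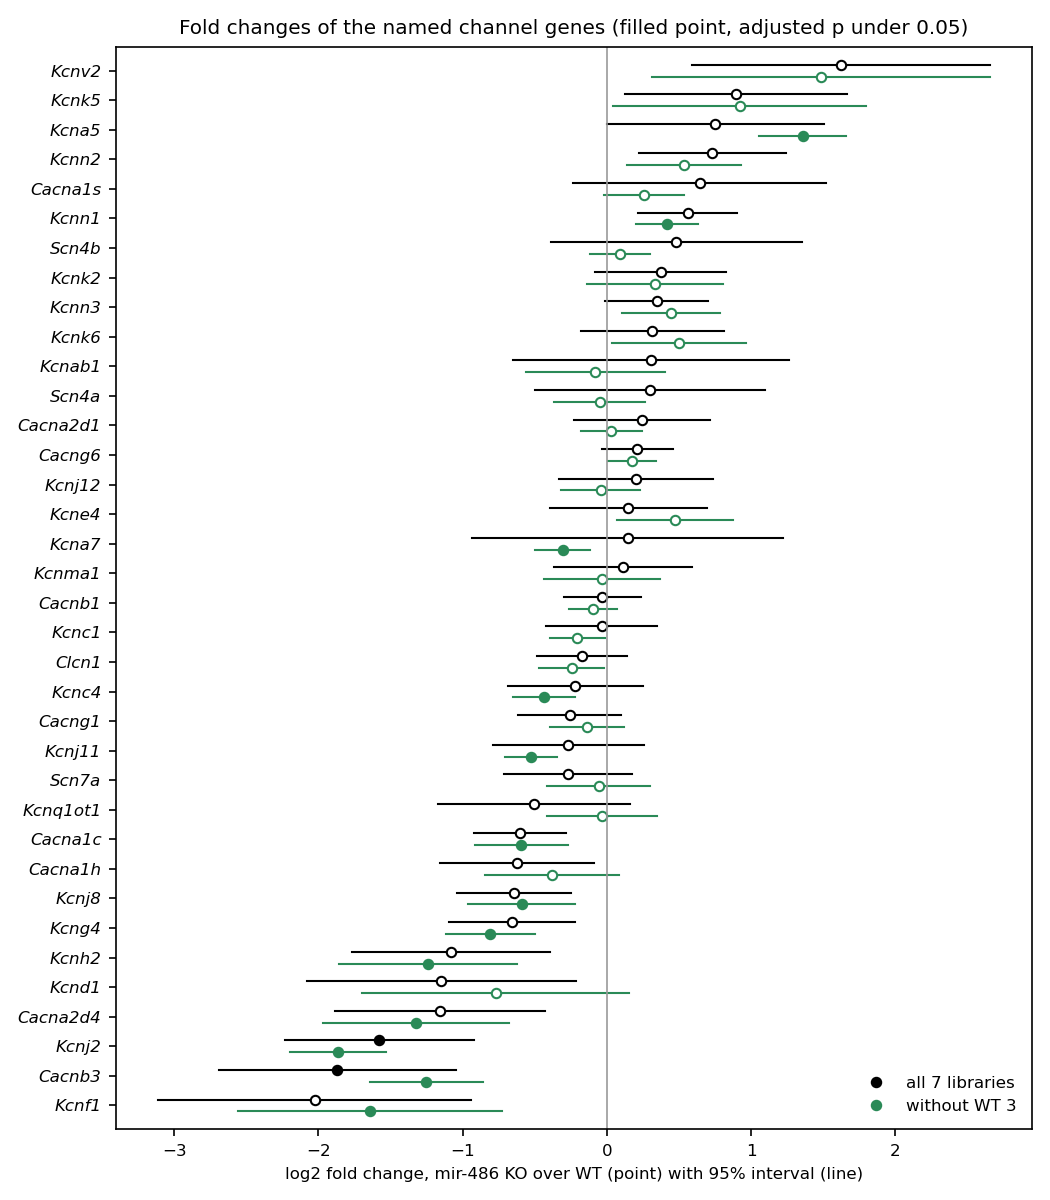
Log2 fold change (mir-486 KO over WT, x axis) of 36 named channel genes that were tested, with 95% intervals, from edgeR with all 7 libraries (black) and without WT 3 (green). Filled points have an adjusted p under 0.05: 2 genes with all libraries, Kcnj2 and Cacnb3, against 13 of these genes without WT 3, and Kcna7 changes sign.

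The other inward rectifiers moved less than Kcnj2. Kcnj11 and Kcnj8 encode the pores of ATP-sensitive potassium channels, Kir6.2 of the fibre and Kir6.1 of vascular smooth muscle and pericytes. Kcnj11 had 127, 126 and 63.8 CPM in WT 1 to 3 and 89.2, 93.0, 79.0 and 90.8 CPM in KO 1 to 4. The KO libraries lay between WT 3, the lowest, and the other WT libraries. Its log2 fold change was -0.27 (edgeR adjusted p = 0.530), and without WT 3 it fell by 0.52 on the log2 scale (adjusted p = 0.00282 by edgeR, SE 0.08). Kcnj8 had 18.8, 16.3 and 19.4 CPM in WT and 11.4, 8.78, 14.8 and 11.5 CPM in KO. All its KO libraries were below all WT libraries, WT 3 included, with a log2 fold change of -0.64 (edgeR adjusted p = 0.0883) and, without WT 3, -0.59 (edgeR adjusted p = 0.0457). Kcnj12, which encodes Kir2.2, had a mean of 42.4 ± 13.9 CPM in WT and 48.8 ± 7.02 CPM in KO, with a log2 fold change of 0.20 (95% interval -0.33 to 0.73; -0.04 without WT 3). The remaining 11 inward rectifiers had at most 22 reads in any library.

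Kcnj8, Kcnj2, Cacnb3 and Cacna1c are also used outside the fibre. Of 7 endothelial markers tested, 1 fell with all libraries (Kdr), against 1.85% of all genes, and the others did not pass. Without WT 3, 4 fell, against 6.55% of all genes. The endothelial list summed to 341 to 388 CPM in WT and 249 to 282 CPM in KO. Of 7 smooth muscle and pericyte markers, 0 passed edgeR's test and 5 had an unadjusted p under 0.05 (20.2% of all genes). DESeq2 called 2 of these markers lower (3.89% of all genes), and 2 fell without WT 3 (6.55%). The smooth muscle and pericyte list summed to 392 to 643 CPM in WT, highest in WT 3, and 357 to 421 CPM in KO. No marker of these lists was at 0. The part of these cells in the channel results was not tested.

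Among the voltage-gated potassium pores, with a median log2 fold change of -0.04 over 17 genes, none passed the test with all libraries. An unadjusted p under 0.05 was found in 6 of them, against 20.2% of all genes. The 6 hold the low genes Kcnv2 and Kcnd1, which are no support for that count. DESeq2 called 2 lower, against 3.89% of all genes. The most negative log2 fold change was that of Kcnf1, which encodes Kv5.1, a subunit that forms no channel alone and modifies Kv2 channels. Kcnf1 had 14.5, 7.21 and 20.9 CPM in WT 1 to 3 and 1.69, 6.596, 2.65 and 3.00 CPM in KO 1 to 4. The groups did not overlap, but KO 2 came close to WT 2. The log2 fold change was -2.03 (adjusted p = 0.0645 by edgeR, SE 0.48), and -1.64 without WT 3 (edgeR adjusted p = 0.0285).

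Kcng4 and Kcnv2 encode further silent subunits of Kv2 channels, Kv6.4 and Kv8.2. Kcng4 had 139, 198 and 116 CPM in WT and 84.3, 89.0, 105 and 105 CPM in KO. Every KO library was below every WT library, with WT 3 nearest, at a log2 fold change of -0.66 (adjusted p = 0.109 by edgeR, SE 0.19) and, without WT 3, -0.81 (edgeR adjusted p = 0.00490). Kcnv2 was very low, at 0.161 ± 0.0333 CPM in WT against 0.512 ± 0.212 CPM in KO (log2 fold change 1.63, edgeR adjusted p = 0.0978; 1.49 without WT 3). It met the filter on low counts through its KO libraries only and was not tested when KO 2, KO 3 or KO 4 was left out, so its value describes these libraries and no more.

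Kcna5 encodes Kv1.5, a delayed rectifier of heart, vessels and muscle. It had 4.91, 6.04 and 14.0 CPM in WT 1 to 3 and 15.3, 12.2, 14.2 and 14.2 CPM in KO 1 to 4. WT 3 lay within the KO range and the other WT libraries far below it. With all libraries the log2 fold change was 0.75 (adjusted p = 0.246 by edgeR, SE 0.33), and without WT 3 Kcna5 rose by 1.36 (adjusted p = 2.75e-04 by edgeR, SE 0.13), the larger of the rises among the 2 genes that rose in that fit. Its promoter, on the minus strand at chr6:126535506-126535805, was picked by hand and is shown beside those of Kcnj2 and Cacnb3. Promoters of the other genes called only without WT 3 are not shown. A GC box occurred in 45.9% of promoters of tested channel genes, so the lack of it does not set Kcna5 apart. The Kcna5 window was 55.0% G and C with 4 CpG dinucleotides, had no GC box of these letters, and holds an E-box at position 9, in capitals.
Kcna5: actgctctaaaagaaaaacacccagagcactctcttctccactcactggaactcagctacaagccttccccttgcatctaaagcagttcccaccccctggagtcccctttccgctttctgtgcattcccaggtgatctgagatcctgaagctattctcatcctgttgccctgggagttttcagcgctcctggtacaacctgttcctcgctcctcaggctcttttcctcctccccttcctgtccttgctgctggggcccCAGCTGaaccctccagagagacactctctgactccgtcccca

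Kcna7 encodes Kv1.7, a pore enriched in skeletal muscle. Kcna7 had 97.0, 110 and 19.2 CPM in WT 1 to 3 and 75.5, 85.9, 86.6 and 85.7 CPM in KO 1 to 4. WT 3 was far below all other libraries, and the remaining WT libraries were both above all KO libraries. The log2 fold change was 0.14 with all libraries (edgeR adjusted p = 0.877) and -0.31 without WT 3 (edgeR adjusted p = 0.0457), so that its direction turned with that library.

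Kcnc1 and Kcnc4 encode the fast Kv3.1 and Kv3.4 channels, which support brief action potentials. Kcnc4 had 162, 143 and 87.5 CPM in WT and 106, 126, 103 and 116 CPM in KO, again with WT 3 below and the other WT libraries above the KO range. Its log2 fold change was -0.22 (edgeR adjusted p = 0.565) and, without WT 3, -0.43 (edgeR adjusted p = 0.0160). Kcnc1 stood at 161 ± 36.6 CPM in WT against 157 ± 9.72 CPM in KO, a log2 fold change of -0.04 (95% interval -0.42 to 0.35; -0.20 without WT 3).

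Kcnh2 encodes ERG1, the channel of the cardiac rapid delayed rectifier, which has been tied to muscle atrophy in mice. It had 3.79, 7.47 and 3.74 CPM in WT and 1.69, 2.503, 2.24 and 3.04 CPM in KO. The groups did not overlap, and WT 2 was the highest (log2 fold change -1.08, edgeR adjusted p = 0.0972; -1.24 without WT 3, edgeR adjusted p = 0.0170). Kcnd1, a transient A-type pore, was at 0.698 ± 0.298 CPM in WT against 0.309 ± 0.124 CPM in KO (log2 fold change -1.15, edgeR adjusted p = 0.172; -0.77 without WT 3). Its reads numbered 18, 12 and 25 in WT and 7, 5, 13 and 7 in KO. Kcnd1 met the filter on low counts mainly through WT, where it is high, so its value describes these libraries and no more.

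Of 7 tested calcium- and sodium-activated potassium channels, 2 had an unadjusted p under 0.05, against 20.2% of all genes. Both were of the small-conductance SK family. Kcnn1, which encodes SK1, had 12.9, 13.3 and 9.22 CPM in WT and 16.7, 18.4, 16.1 and 18.5 CPM in KO. All KO libraries were above all WT libraries, and WT 3 was the lowest. Kcnn1 had a log2 fold change of 0.56 (adjusted p = 0.0871 by edgeR, SE 0.15) and rose by 0.42 without WT 3 (edgeR adjusted p = 0.0191). Kcnn2 went from 2.20 ± 0.597 to 3.66 ± 0.490 CPM without overlap (log2 fold change 0.73, edgeR adjusted p = 0.122; 0.54 without WT 3, edgeR adjusted p = 0.0768). Kcnn3, which encodes SK3 and is known to appear in denervated and developing muscle, went from 5.09 ± 0.625 to 6.46 ± 0.815 CPM with overlap (log2 fold change 0.35, edgeR adjusted p = 0.262; 0.44 without WT 3). Kcnma1, the large-conductance BK pore, stood at 13.0 ± 3.64 and 14.1 ± 2.40 CPM (log2 fold change 0.11, 95% interval -0.37 to 0.59; -0.03 without WT 3).

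Kcnt1, a sodium-activated channel, was too low to test with all libraries and is named outside the rule because it passed without WT 3. Its reads numbered 23, 15 and 7 in WT and 9, 5, 4 and 5 in KO. WT 3 fell within the KO range, and without it the log2 fold change was -1.57 (edgeR adjusted p = 0.0290). It then met the filter on low counts only through WT 1 and WT 2, where it is high, so it had to differ and is no support for the count of 12. Leaving it aside, 11 fell.

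The K2P leak channels were low throughout. Kcnk5, or TASK-2, was at 0.402 ± 0.0908 CPM in WT against 0.750 ± 0.221 CPM in KO without overlap, but did not pass the test (log2 fold change 0.90, edgeR adjusted p = 0.188; 0.92 without WT 3). Its reads numbered 9, 13 and 10 in WT and 14, 15, 26 and 22 in KO. Kcnk5 met the filter on low counts mainly through KO, where it is high, so its value describes these libraries and no more. Kcnk2 and Kcnk6, which encode TREK-1 and TWIK-2, were at 1.98 and 1.89 CPM in WT and 2.57 and 2.34 CPM in KO, with edgeR adjusted p of 0.331 and 0.440 (log2 fold changes 0.37 and 0.31; 0.34 and 0.50 without WT 3). Among the 5 tested auxiliary subunits of potassium channels none passed edgeR's test, none had an unadjusted p under 0.05 and DESeq2 called none. The most abundant, Kcnab1, a cytoplasmic beta subunit of Kv1 channels, had 7.23, 12.4 and 2.67 CPM in WT and 7.29, 11.4, 8.59 and 9.66 CPM in KO, so that its WT spread covered the KO values (log2 fold change 0.31; -0.08 without WT 3). Kcne4 was at 1.93 ± 0.682 CPM in WT against 2.13 ± 0.0870 CPM in KO (log2 fold change 0.15; 0.48 without WT 3). Kcnq1ot1, the RNA antisense to Kcnq1 that silences an imprinted cluster, stood at 3.51 ± 1.71 and 2.46 ± 0.217 CPM (log2 fold change -0.51, edgeR adjusted p = 0.365; -0.03 without WT 3), and the other 4 RNA members had no read.

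The pore of the T-tubule calcium channel is Cav1.1, encoded by Cacna1s, which drives excitation-contraction coupling. None of 6 tested calcium channel pores passed edgeR's test with all libraries, and 2 had an unadjusted p under 0.05, against 20.2% of all genes. DESeq2 called 1 lower, Cacna1c, against 3.89% of all genes. Cacna1s had 743, 721 and 215 CPM in WT 1 to 3 and 702, 963, 904 and 929 CPM in KO 1 to 4. KO 1 lay below WT 1 and WT 2, the other KO libraries lay above them, and WT 3 was lowest by a wide margin. The log2 fold change was 0.64 (95% interval -0.23 to 1.52; edgeR adjusted p = 0.380) and 0.26 without WT 3 (edgeR adjusted p = 0.206). An antisense gene shares 20% of the exon bases of Cacna1s. Strand use in counting is not given, so it is unknown whether reads over those bases were counted or set aside as ambiguous.

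Its auxiliary subunits of the fibre did not pass the test either. Cacng1, the gamma subunit that tempers Cav1.1, had 221, 261 and 302 CPM in WT and 239, 242, 189 and 205 CPM in KO (log2 fold change -0.26, 95% interval -0.61 to 0.10; -0.14 without WT 3), with WT 3 the highest. Cacna2d1, which brings the channel to the membrane, stood at 347 ± 98.0 and 410 ± 37.5 CPM (log2 fold change 0.24, 95% interval -0.23 to 0.71), and 0.03 without WT 3, which had 234 CPM against 398 in WT 1 and 409 in WT 2. Cacng6 had 99.2, 109 and 95.2 CPM in WT and 119, 121, 115 and 114 CPM in KO, all KO libraries above all WT libraries but by a small margin (log2 fold change 0.21, edgeR adjusted p = 0.311; 0.18 without WT 3).

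Calcium channel genes that fell without WT 3 were 2 of 10 auxiliary subunits, Cacnb3 and Cacna2d4, and 1 of 7 pores, Cacna1c. In that fit 6.55% of all genes fell. Others not known for fibre coupling did not pass in it, among them Cacna2d2, Cacna2d3 and Cacna1h. Cacna1c encodes Cav1.2, the L-type pore of heart and smooth muscle. It had 6.72, 5.93 and 6.38 CPM in WT and 3.76, 3.85, 4.78 and 4.32 CPM in KO. WT 3 sat among the WT libraries, and the groups were apart, at a log2 fold change of -0.60 (adjusted p = 0.0637 by edgeR, SE 0.14; -0.59 without WT 3, edgeR adjusted p = 0.0247). Cacna2d4, an alpha2delta subunit known from retina, had 22.2, 54.0 and 24.9 CPM in WT and 11.3, 19.7, 14.8 and 14.8 CPM in KO. WT 2 was far above the rest and KO 2 came near WT 1, at -1.15 (adjusted p = 0.0965 by edgeR, SE 0.32; -1.32 without WT 3, edgeR adjusted p = 0.0157). These genes lie 40108 bp apart on chromosome 6, on opposite strands. Cacna1h, a T-type pore of developing muscle, was at 2.64 ± 0.709 CPM in WT against 1.71 ± 0.299 CPM in KO without overlap (log2 fold change -0.62, edgeR adjusted p = 0.191; -0.38 without WT 3).

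The sodium channel of the adult fibre is Nav1.4, encoded by Scn4a. None of the 3 tested sodium channel pores or 4 beta subunits passed edgeR's test with or without WT 3, and DESeq2 called none. With all libraries 1 had an unadjusted p under 0.05, against 20.2% of all genes. Scn4a had 563, 554 and 193 CPM in WT 1 to 3 and 405, 588, 569 and 589 CPM in KO 1 to 4. Apart from WT 3 and KO 1, the libraries lay close together. The log2 fold change was 0.30 (95% interval -0.49 to 1.09), and -0.05 without WT 3. Scn4b, a beta subunit, had 605, 584 and 169 CPM in WT and 566, 680, 656 and 626 CPM in KO. WT 3 again gave the lowest value, and the other libraries overlapped. Scn4b had a log2 fold change of 0.48 (edgeR adjusted p = 0.498) and 0.09 without WT 3. Scn7a, a channel of glia and other non-fibre cells that takes part in sodium sensing, was at 6.61 ± 1.57 and 5.48 ± 0.856 CPM (log2 fold change -0.27, edgeR adjusted p = 0.464; -0.06 without WT 3).

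Of 9 denervation markers tested, Chrnb1 and Ncam1 fell and none rose with all libraries, and DESeq2 called 3 lower. Without WT 3, Runx1 fell beside them (edgeR adjusted p = 0.0471) and Myog rose by 1.44 (edgeR adjusted p = 0.0298). The list had sums of 108 to 201 CPM in WT, highest in WT 3, and 74.8 to 96.1 CPM in KO. Of 7 nerve markers, 6 were too low to test, among them Snap25, Nefl and Chat at 0, and Stmn2, the only one tested, did not pass. Schwann cell markers summed to 25.9 to 41.4 CPM in WT and 21.4 to 41.4 CPM in KO, with none of 6 past edgeR's test, none at an unadjusted p under 0.05 and none by DESeq2.

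Clcn1 encodes ClC-1, the chloride channel that sets most of the resting conductance of the fibre and is lost in myotonia congenita. It had 246, 276 and 221 CPM in WT and 190, 239, 223 and 226 CPM in KO. The groups overlapped, with KO 1 the lowest, at a log2 fold change of -0.17 (95% interval -0.49 to 0.14; edgeR adjusted p = 0.494) and -0.24 without WT 3 (edgeR adjusted p = 0.145). The gene Fam131b shares 8.2% of its exon bases on the other strand.

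WT 3 was low in the most abundant channel genes. Over all 14002 genes the median log2 ratio of WT 3 to the mean of WT 1 and WT 2 was 0.01, over the 61 tested channel genes -0.12, and over the 20 most abundant channel genes -0.75. Of these 20, 14 had their lowest level of the 7 libraries in WT 3. The same held for 37.7% of the tested channel genes and 34.5% of all genes tested. Low values in WT 3 were not particular to channels. Atp2a1 had 8889 CPM there, against 19304 in WT 1 and 19888 in WT 2. Ryr1 had 2503 CPM, against 3835 and 3939. Ckm was also lowest in WT 3, while the fast fibre markers Tnni2 and Pvalb were highest there. The ratio of WT 3 to the mean of WT 1 and WT 2 was 0.186 in Kcna7, 0.284 in Scn4b, 0.293 in Cacna1s, 0.345 in Scn4a, 0.449 in Kcnj2 and 0.503 in Kcnj11. It was above 1 in Cacng1 (1.25), Kcnf1 (1.93), Kcna5 (2.55) and Cacnb3 (2.61). WT 3 thus lowered the WT mean of the first group and raised that of the second.

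**Figure D4:**
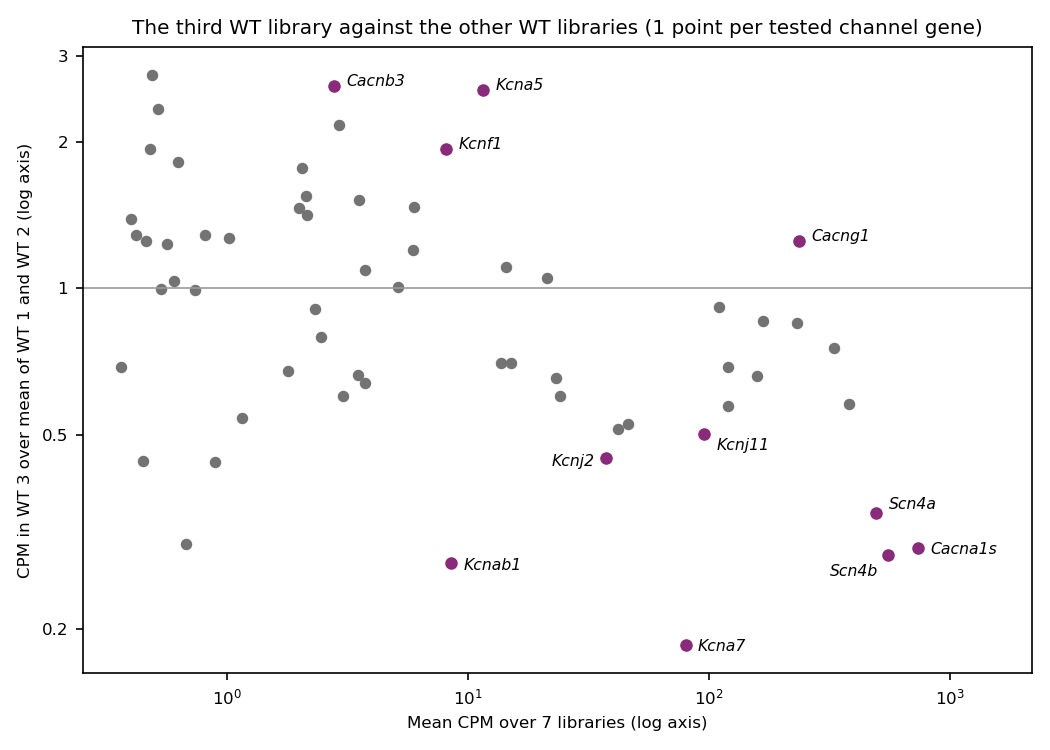
Level in WT 3 over the mean of WT 1 and WT 2 (y axis, log scale) against the mean CPM over 7 libraries (x axis, log scale), 1 point per tested channel gene, with 11 genes named in colour. Most of the 20 most abundant genes lie below 1, with Cacng1 (1.25) above it, and the lowest is Kcna7 (0.186), while Cacnb3 and Kcna5 lie near 2.6.

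Fibre type markers were read beside the channel genes. Of 7 slow fibre markers 1 fell (Myl2), and without WT 3, 4 fell and 1 rose, with sums of 82.1 to 135 CPM in WT and 58.1 to 83.8 CPM in KO. None of the 7 fast fibre markers passed edgeR's test, 1 had an unadjusted p under 0.05 and DESeq2 called none. Myeloid markers summed to 13.1 to 42.8 CPM in WT, highest in WT 3, and 11.5 to 19.1 CPM in KO, and fibro-adipogenic markers to 265 to 323 and 289 to 379 CPM. With all libraries neither list had a gene past edgeR's test or DESeq2's, with 2 of 6 and 0 of 5 genes at an unadjusted p under 0.05, and without WT 3 the fibro-adipogenic marker Lum fell by 0.44 (edgeR adjusted p = 0.0218). The part of fibre type or of these cells in the channel results was not tested.

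Genes that work with these channels were read from a list of 31, of which 24 were tested. With all libraries none passed edgeR's test, and the median log2 fold change was -0.11. At an unadjusted p under 0.05 there were 6 of 24, against 20.2% of all genes. DESeq2 called 1 higher and 2 lower, against 2.64 and 3.89% of all genes. Without WT 3, 5 of 25 fell and 1 rose, against 6.55 and 6.15% of all genes. Abcc8, the SUR1 receptor of ATP-sensitive channels, went from 2.34 ± 0.433 to 1.20 ± 0.405 CPM and fell by 1.06 without WT 3 (edgeR adjusted p = 0.0307). Abcc9, the SUR2 receptor that pairs with Kcnj11 and Kcnj8, stood at 279 ± 112 and 329 ± 47.1 CPM (log2 fold change 0.24; -0.05 without WT 3). Atp1b2, a subunit of the sodium-potassium pump, had a log2 fold change of -0.41 with all libraries (edgeR adjusted p = 0.13) and fell by 0.43 without WT 3 (edgeR adjusted p = 0.0204). Rrad, an inhibitor of calcium channels, was at 5.95 ± 7.64 CPM in WT against 0.340 ± 0.0448 CPM in KO (log2 fold change -4.10, edgeR adjusted p = 0.0603). Without WT 3 it fell by 2.16 (edgeR adjusted p = 0.00884). Its KO libraries held only 0.288 to 0.397 CPM. Rrad thus met the filter on low counts mainly through WT, where it is high, and is no support for the count of 5. Ank3 was among those that fell. Lrrc52, an auxiliary subunit of BK-type channels, was the 1 gene that rose without WT 3, by 1.59 (edgeR adjusted p = 0.0247). It was very low, at 0.325 CPM in WT against 0.915 CPM in KO. Lrrc52 met the filter on low counts through its KO libraries only, so its value describes these libraries and no more. Ryr1, the ryanodine receptor that Cacna1s opens, had a log2 fold change of 0.21 (edgeR adjusted p = 0.581) and 0.04 without WT 3.

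The calls with all libraries were sensitive to the loss of single libraries. Without WT 1 only Cacnb3 was called (1 of 65, against 2.03% of all genes in either direction), as was the case without WT 2 (1 of 68, against 0.975%). Without KO 1, KO 2, KO 3 or KO 4, 0 channel genes were called, against 0.346, 0.316, 0.144 and 0.151% of all genes. Over these 6 fits the log2 fold change was -1.72 to -1.38 in Kcnj2 and -2.11 to -1.81 in Cacnb3. With RLE in place of TMM factors the same 2 genes were called (against 2.82%), and with no filter on low counts 4 of 118 were called, Kcnf1 and Cacna2d4 beside them (against 2.21%).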

How the data were processed

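The 3 WT and 4 mir-486 KO libraries of TA were compared. Per the labels and the submitters' processing notes, the tools were HTSeq 0.6.1, STAR 2.5.2b, Trim Galore 0.4.2 and CASAVA 1.8.2, and the authors deposited whole-number read counts per gene in 1 table of 48795 genes plus 5 summary rows, left out here (no feature, 3.25 to 4.34% of the table). The methods text instead describes Salmon, a stranded kit and 4 mice per cohort; 3 WT libraries were analysed here. The build, annotation and strandedness used for counting are not stated in those sources. Reads aligned to several places (24.4 to 34.3% of each table total) were not counted, which lowers genes with near-identical copies. No library pair agreed within sampling noise.

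IDs were matched to GENCODE M21 (48349 of 48795; 446 unmatched). Genes were filtered with filterByExpr (minimum count 10) and tested with edgeR 4.0.16 (TMM, glmQLFit, glmQLFTest, R 4.3.3), and p-values of all 14002 genes were adjusted by Benjamini-Hochberg, with calls at 0.05. CPM, SD, levels per 1000 bases of exon and intervals (95%) were computed from the same counts. The test was tested on simulated data. Alternatives were DESeq2 1.42.0, RLE factors, no filter, a log2 fold change of at least 1, each library left out and a replicate block. Precision is limited by the spread among 3 WT and 4 KO libraries and, for genes with few reads, by depth, 23839577 to 28168275 gene counts per library. Promoters were from RefSeq, with a match for 103 of 140 members.

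Named genes were the tested members with an adjusted or an unadjusted p under 0.05, the 2 most abundant of each class, and a list of channels known from muscle; some genes that the rule or the lists name are not reported here. Members, lists and the rule were chosen with earlier results of these data known.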

Additional observations from a re-analysis of the deposited data

Results flagged for a closer look

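In the group of 4 KO libraries, 3 of the named channel genes had 1 library far from the other 3 by Dixon's test at the 95% level, which chance gives in about 1 of 20 groups. In each the library was KO 1. It was the lowest for Kcna7 (75.5 CPM, against 85.7 to 86.6 CPM in the others) and for Scn4a (405 CPM, against 569 to 589 CPM). It was the highest for Kcnq1ot1 (2.78 CPM, against 2.34 to 2.35 CPM). KO 1 also had the highest mitochondrial share of the KO libraries (17.9%) and the lowest share of gene counts on channel genes (0.398%). Without KO 1 none of these 3 genes passed edgeR's test.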

How the results depend on the processing

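No channel gene was higher with all libraries, and 2 were lower. DESeq2 gave 1 higher and 7 lower, no filter on low counts 0 and 4, and DESeq2 without WT 3, added after seeing the data, 2 and 10. For DESeq2 without WT 3 the share over all genes was not computed, so its counts cannot be set against it. Leaving out single libraries gave 0 to 2 higher and 0 to 12 lower. With the replicate block (KO 4 left out) the counts were 0 and 0, but that fit called 0 of all 13897 genes it tested. Its zeros are therefore not particular to the channel genes. In it Kcnj2 stood at -1.42 and Cacnb3 at -1.75 on the log2 scale. The samples share only a number: same-numbered libraries correlated at -0.315, 0.256 and -0.124 in their deviations from the group means. RLE factors and a log2 fold change of at least 1 left the counts at 0 and 2.

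Over 428 pairs of a named gene and an alternative, 375 kept direction and side of the threshold, 27 passed it newly, 12 lost it and 14 turned sign, in 7 genes. With single libraries left out the log2 fold change ranged from -0.096 to 0.052 in Cacnb1, -0.31 to 0.52 in Kcna7, -0.081 to 0.89 in Kcnab1, -0.20 to 0.11 in Kcnc1, -0.043 to 0.38 in Kcnj12, -0.035 to 0.36 in Kcnma1 and -0.050 to 0.53 in Scn4a. DESeq2 without WT 3 turned Kcna7 to -0.31, Kcnab1 to -0.085, Kcnj12 to -0.046, Kcnma1 to -0.036 and Scn4a to -0.053. Only Kcna7 passed the test in any of these, and the cause was not tested. Depth limits the 79 untested members, whose direction is unknown.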
